A study of Oryctolagus cuniculus with 3 samples.

Results

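Cholesterol synthesis and its feedback were followed through 3 genes, EBP, ACAT2 and INSIG1, each read by 1 probe out of 43603 gene probes on a rabbit genome array. ACAT2 was taken by its probe, A_04_P077142. The probes of EBP (A_04_P048032) and INSIG1 (A_04_P056543) were found by matching, because the value table carries no gene names: each was the only probe whose log2 ratios of model over control and of recovery over control both lay within 0.006 of that gene's row in the study's gene table. The assigned probe lay 0.0044 away for EBP, 0.0014 for ACAT2 and 0.0020 for INSIG1, and the nearest probe outside the limit lay 0.0277, 0.0444 and 0.1100 away. From the density of probes around each gene, 0.00489 matches by chance were expected for EBP, 0.0163 for ACAT2 and 0.00489 for INSIG1. The ratios to control therefore chose the EBP and INSIG1 probes, and with them the change from model to recovery, which is the difference of the pair, so all 3 ratios are given as a description. The signal levels and the behaviour of other probes were not used to choose them.

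The arrays came from the abdominal aortas of 3 male New Zealand white rabbits, 1 per group, which the study picked by histology and intravascular ultrasound out of 4 per group bought at 3 months of age. The control rabbit (day 0) was uninjured and ate normal chow. The title of its sample also carries the label PBS, and the methods name no PBS treatment of the control rabbits. The model rabbit (day 30) had 4 weeks of chow with 1% cholesterol and 6% peanut oil, with balloon injury of the abdominal aorta 3 days into the diet, and stands for progression of atherosclerosis. The recovery rabbit (day 60) had the same diet and injury, then 4 weeks of chow without added cholesterol or fat, and stands for regression. The methods add a 20% cut in daily intake in these last weeks, whereas the sample labels speak of a normal diet. The injury and the diet went together, so their parts in a difference from control cannot be told apart. Recovery and model differed in diet and in time since the injury, which likewise cannot be told apart. With 1 array per group there was no spread between rabbits, hence no SD and no p-value, and each difference below is a difference between single aortas.

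Cells make cholesterol from acetyl-CoA through mevalonate, squalene and lanosterol and also take it up from lipoproteins. When membranes hold little sterol, the escort protein SCAP carries the transcription factor SREBP2 from the endoplasmic reticulum to the Golgi apparatus, where it is cleaved and released to turn on the genes of both routes. When sterol is plentiful, INSIG proteins hold SCAP and SREBP2 back. ACAT2 encodes the cytosolic acetyl-CoA acetyltransferase, which joins a pair of acetyl-CoA molecules at the entry to the route. EBP encodes the sterol isomerase that moves a double bond in the sterol ring late in the route, and INSIG1 is both a brake on SREBP2 and one of its targets.

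All 3 genes were far lower in the model and recovery aortas than in the control aorta, and none returned halfway to the control level. EBP, at the late end of the route, was 58.3-fold lower in model than in control and 68.8-fold lower in recovery than in control. ACAT2, at its entry, was 12.1-fold lower in model and 17.8-fold lower in recovery. For INSIG1, the feedback gene, the model signal was lower by at least 15.0-fold and the recovery signal by 9.64-fold. It was the only one of the 3 whose signal in recovery stood above that in model.

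EBP stood at a normalized log2 signal of 13.91 in the control aorta, 8.04 in the model aorta and 7.80 in the recovery aorta. All 3 values lay well above 4.37, the 40th percentile of all values, which served as the floor below which a signal was not read. Model over control gave a log2 ratio of -5.87, and recovery over control gave -6.10. Only the control aorta was high, and the model and recovery aortas differed by 0.24 on the log2 scale, with recovery lower (1.18-fold). Among 24353 probes above the floor in both the model and the control array, EBP held rank 39 from the most lowered. For recovery over control it held rank 49 of 23983.

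ACAT2 stood at a log2 signal of 12.71 in the control aorta, 9.12 in the model aorta and 8.56 in the recovery aorta, all above the floor. Model over control gave a log2 ratio of -3.59, rank 240 of 24353, and recovery over control gave -4.15, rank 261 of 23983. As with EBP, the control aorta alone was high, and recovery was the lowest of the 3, at 1.47-fold below model (log2 ratio -0.56). The name needs care, because ACAT2 has also been used in the literature for a sterol esterifying enzyme now called SOAT2, and the probe's own sequence was not used here. In RefSeq's rabbit annotation (assembly mOryCun1.1) ACAT2 is the thiolase gene, and it overlaps TCP1, which encodes a subunit of a cytosolic chaperonin. EBP and INSIG1 overlap no other protein-coding gene there.

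INSIG1 stood at a log2 signal of 8.28 in the control aorta, 3.90 in the model aorta and 5.01 in the recovery aorta. The model value lay below the floor, so its fold against control is a lower bound, with a log2 ratio of -3.91 when the model signal is set to the floor and -4.38 without a floor. Recovery over control was measured on both sides at -3.27, rank 479 of 23983. Of the floored log2 difference between model and control, 16.4% was reversed in recovery, against -4.1% for EBP and -15.6% for ACAT2, where the negative sign means a further decrease.

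**Figure D1:**
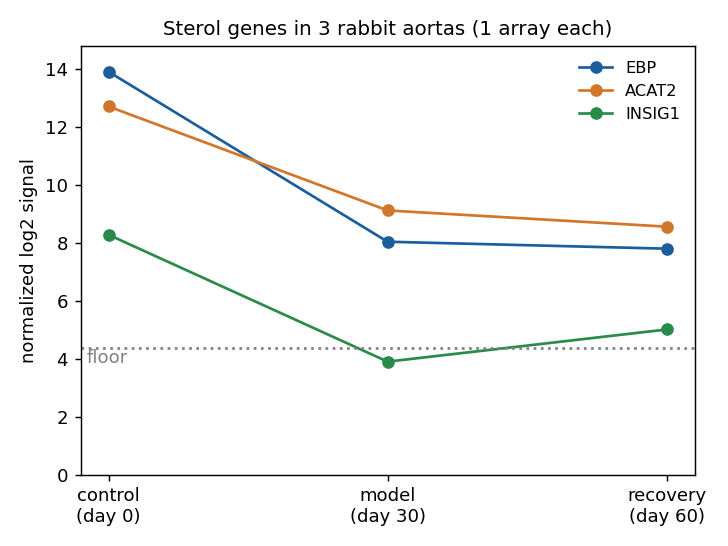
Normalized log2 signal (vertical axis) of EBP, ACAT2 and INSIG1 in the control, model and recovery aorta, 1 array each, with the floor of 4.37 as a dotted line. EBP and ACAT2 stay above the floor at 7.80 or more in all arrays, and INSIG1 lies below it in model only.

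Counts were set against all probes, since large changes were common on these arrays. Of 28959 probes that exceeded the floor on some array, 13.1% were at least 2-fold lower in model than in control, and 3 of 3 genes were. In recovery against control 16.0% were at least 2-fold lower, and again 3 of 3 genes were. Both conditions were met by 3058 probes (10.6%). Because the study's gene table lists genes called changed and because matching works best far from the origin, nothing about the 3 genes is read from these counts. Of the 614 genes assigned to a probe by the same rule, 507 exceeded the floor on some array, and 46.9% of those were at least 2-fold lower in model than in control.

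**Figure D2:**
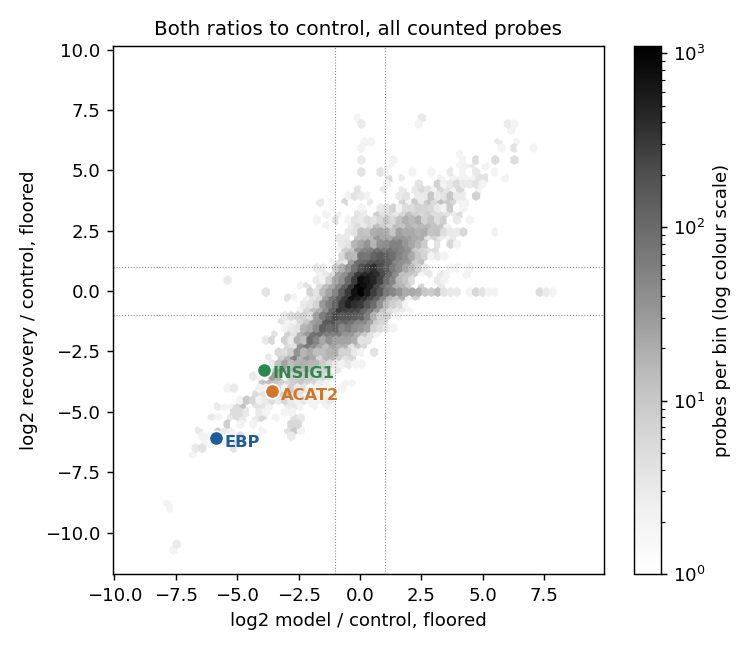
Log2 ratio of model over control (horizontal axis) against log2 ratio of recovery over control (vertical axis) after flooring, for the 28959 probes that exceeded the floor on some array (grey, log colour scale), with dotted lines at 2-fold. EBP lies at -5.87 and -6.10, near the end of the lower arm, and ACAT2 and INSIG1 lie along the same arm. The value of INSIG1 in model is a bound.

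Regression was addressed by recovery over model. None of the 3 genes differed by 2-fold after flooring, where 7.04% of probes were at least 2-fold higher and 8.16% at least 2-fold lower in recovery than in model. The log2 ratio was -0.24 for EBP and -0.56 for ACAT2, against a median absolute log2 ratio of 0.40 over all 24728 probes above the floor in both arrays. EBP and ACAT2 had 32.47% and 17.90% of those probes at or below them. For INSIG1 the ratio was at least 0.64 (1.56-fold), and 1.11 if the model signal below the floor is taken as it stands. The direction thus differed between the synthesis genes and the feedback gene, but all 3 values rest on 1 aorta per group and this difference was not tested.

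The scale of the arrays moved in the same comparison. The 8 E1A rows above the floor, Agilent's spiked-in transcripts, which its protocol adds in equal amounts to each labelling reaction, were lower in model than in control by a median log2 ratio of -0.46 and higher in recovery than in model by 0.56. When each array was centred on these controls, the median probe stood at 0.49 in model over control and -0.54 in recovery over model. Under that scaling 72.4% of the probes changed 2-fold between model and control were higher in model, against 47.7% on the deposited scale. Between recovery and model 11.4% of the changed probes were higher in recovery, against 46.3%. The 3 genes stayed lower in model than in control, at -5.44 for EBP, -3.17 for ACAT2 and -3.81 for INSIG1. In recovery over model the values became -0.80 for EBP, -1.12 for ACAT2, which passes 2-fold, and 0.41 for INSIG1. Both INSIG1 values are bounds, and without a floor they were -3.96 and 0.55. On either scale EBP and ACAT2 lay below the median probe and INSIG1 above it. Centring moves all probes of an array by the same amount, so apart from the floor these places could not change.

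**Figure D3:**
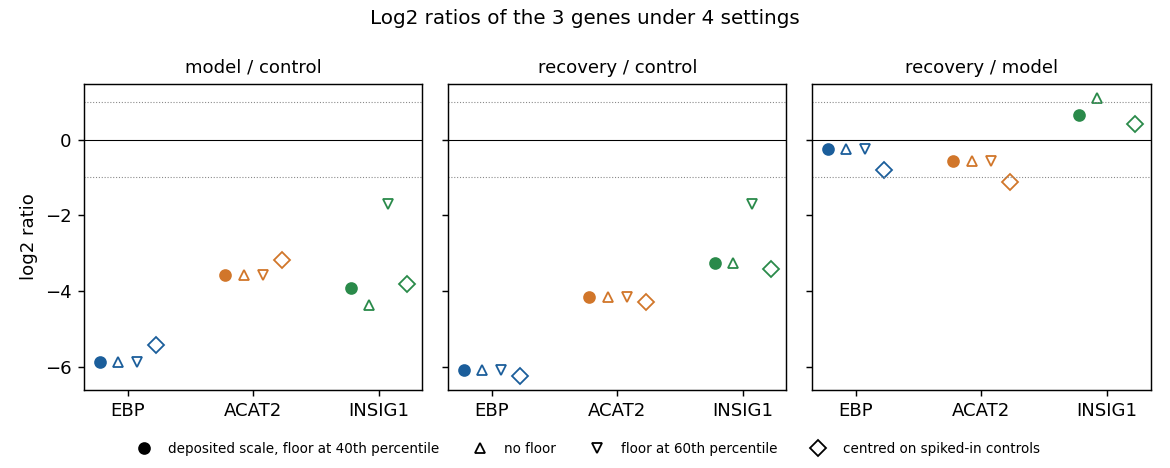
Log2 ratios (vertical axis) of EBP, ACAT2 and INSIG1 in model over control, recovery over control and recovery over model under 4 settings, with dotted lines at 2-fold. EBP and ACAT2 do not depend on the floor. With the floor at the 60th percentile INSIG1 has only a bound of -1.70 against control. With that floor it has no ratio of recovery over model, because both signals lie below it.

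The INSIG1 probe is 1 of 6 with consecutive numbers, A_04_P056542 to A_04_P056547, whereas the EBP and ACAT2 probes stand alone, with the nearest numbers 5 away. Consecutively numbered probes tended to move alike on this array. The median distance between the log2 ratios of such pairs was 0.15 to 0.40, depending on their last digits, against 1.65 for 5268 pairs numbered 5 apart with none between. The largest, 0.40, belonged to pairs ending in 6 and 7, as A_04_P056546 and A_04_P056547 do. Pairs ending in 2 and 3, 3 and 4, or 4 and 5 had 0.15 to 0.19. The gene behind the other 5 probes of the INSIG1 run is not named in the files. A_04_P056542 stood at a log2 signal of 8.73 in the control aorta, 4.36 in the model aorta and 5.25 in the recovery aorta, and A_04_P056544 had 8.69, 4.35 and 5.18 in the same arrays. A_04_P056545 had 7.53, 3.08 and 3.73. A_04_P056542 and A_04_P056544 repeated the pattern of the assigned probe, high in control, lowest in model and slightly higher in recovery. A_04_P056545 was also high in control, but its model and recovery signals both lay below the floor, so their order was not read. A_04_P056546 was dim throughout, with 2.46, 1.46 and 2.30, below the floor in every array. A_04_P056547, the last of the run, departed from the pattern, with 7.98 in the control, 7.47 in the model and 6.89 in the recovery aorta, lowest in recovery and above the floor throughout.

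Besides the assigned probe, A_04_P056542 was lower than in control by at least 20.5-fold in model and by 11.2-fold in recovery, and A_04_P056544 by at least 19.9-fold and by 11.4-fold. Their signals in recovery were at least 1.84-fold and 1.75-fold above those in model, beside at least 1.56-fold for the assigned probe. A_04_P056547 was 1.43-fold lower in model than in control and 2.13-fold lower in recovery, and its log2 ratio of recovery over model was -0.58. A_04_P056545 and A_04_P056546 lay below the floor in both model and recovery and give no such ratio. The median of the spiked-in controls stood 0.56 higher in recovery than in model on the log2 scale. Probes of 1 array share its RNA, so these comparisons concern the measurement within each aorta and not the spread between rabbits.

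**Figure D4:**
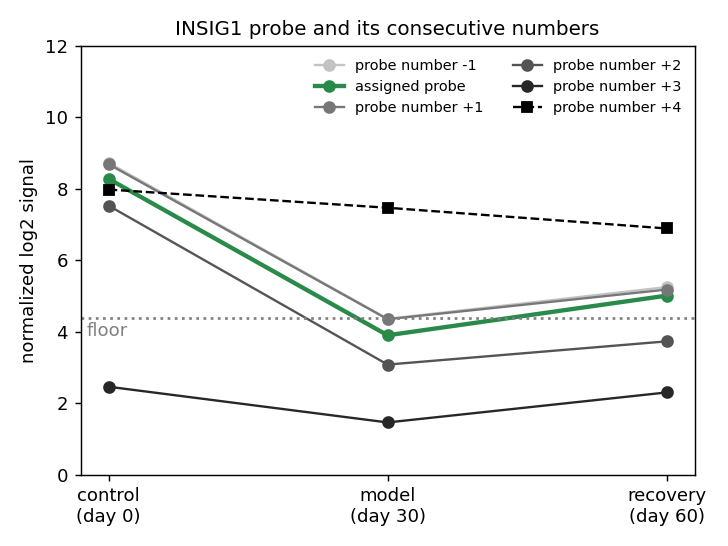
Normalized log2 signal (vertical axis) of the INSIG1 probe (green) and the other 5 probes of its run of numbers (grey to black) in the control, model and recovery aorta, with the floor dotted. The lines of 4 probes run nearly parallel, with control at 7.53 to 8.73. The dim probe numbered 3 above stays below the floor, and the probe numbered 4 above (dashed) stays between 6.89 and 7.98.

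The rest of the pathway was not followed here. Of 48 genes considered for synthesis, feedback, uptake and liver X receptor action, 22 stand in the study's gene table and 3 met the matching rule, namely EBP, ACAT2 and INSIG1. The other 19 genes in that table missed the rule and are given no value. For the 3 genes the median log2 ratio was -3.91 in model over control, with INSIG1 at its bound, and -4.15 in recovery over control, beside medians of 0.02 and 0.04 over all 28959 probes. As with the counts, the genes come from a table of changed genes and a rule that favours large ratios, so nothing is read from this contrast.

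Markers of fat cells moved with these genes. In bulk tissue, fewer cells of a type and less RNA per cell cannot be told apart. Of 19 listed adipocyte genes 6 had an assigned probe, and all 6 were at least 2-fold lower in model than in control, 5 of them also in recovery. Among all counted probes 13.1% were that much lower in model and 16.0% in recovery. Among assigned genes the shares were 46.9% and 43.2%. Their summed signal on the linear scale, with floored values, was 166851 in control, 8163 in model and 15430 in recovery. The adipocyte hormone gene ADIPOQ and the adipogenic receptor gene PPARG both stood at 10.85 in control and lay below the floor in model and recovery. FABP4, a fatty acid carrier of fat cells, stood at a log2 signal of 17.04 in the control aorta, 12.12 in the model aorta and 11.71 in the recovery aorta. Set against control, the log2 ratio of that sum was -4.35 in the model aorta and -3.43 in the recovery aorta. The recovery value rests on SLC2A4, the insulin-regulated glucose transporter gene, which stood at 13.61 in the control, 11.67 in the model and 13.49 in the recovery aorta. The other 5 genes had log2 ratios of recovery over control of -6.68 to -4.71. Without SLC2A4, a step chosen after seeing the data, the log2 ratio of the sum was -4.97 in the model aorta and -5.31 in the recovery aorta. In the same order the ratios were -5.87 and -6.10 for EBP, and -3.59 and -4.15 for ACAT2. INSIG1 had -3.91, a bound, and -3.27. The sum of the 5 fat cell genes is mostly the signal of FABP4, by far the brightest of them. The log2 ratios of FABP4 were -4.92 and -5.33, so the sum describes FABP4 more than the list. The part of fat cells in the lower levels of EBP, ACAT2 and INSIG1 was not tested.

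Other marker lists moved as well. All 6 assigned contractile smooth muscle genes of 12 listed were at least 2-fold higher in model and in recovery than in control, against 11.9% and 16.0% of all counted probes and 35.9% and 30.2% of assigned genes. Their sum was 21326 in the control, 203952 in the model and 286310 in the recovery aorta, with MYH11, the smooth muscle myosin gene that marks the labelled tissue, at 10.71 in control. Of 8 listed hepatocyte genes 4 had a probe, and their sum was 1530 in the control, 172 in the model and 96.1 in the recovery aorta. ALB, encoding albumin, stood at 8.41, 6.78 and 5.09 in these arrays and APOA2 at 10.15 in control and below the floor in the other arrays. These were the 2 of the 4 that were at least 2-fold lower than in control, in model and in recovery. The shares were 13.1% and 16.0% of all counted probes and 46.9% and 43.2% of assigned genes. APOA1 stood at 5.16 in control and below the floor in the other arrays, and TTR lay below the floor in every array. The lymphocyte sum (3 of 8 genes) was 473 in control and 62.1 in both model and recovery, with all 3 genes below the floor in those arrays. PECAM1, the only assigned endothelial gene of 11 listed, stood at a log2 signal of 8.94 in the control aorta, 6.42 in the model aorta and 7.04 in the recovery aorta. The macrophage sum (3 of 10 genes) was 431 in control, 905 in model and 218 in recovery, and 2 of the 3 genes lay below the floor in control and in recovery. The part of these cells was not tested either.

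The genes most like each member were sought by the distance between their pairs of log2 ratios to control, over 3 arrays, among assigned genes outside the pathway lists. For EBP, out of 239 candidates above the floor in every array, AGPAT9, an enzyme of triglyceride synthesis also known as GPAT3, lay at 0.02, with log2 signals of 12.04 in the control, 6.20 in the model and 5.93 in the recovery aorta. GLYCTK, encoding glycerate kinase, followed at 0.30, the collagen gene COL5A3 at 0.33 and TMEM37 at 0.62. Of the whole array 4 other probes lay within 0.25 of EBP, against 25 for ACAT2. For ACAT2 the nearest were CCDC69 at 0.05, EPHX1, an epoxide hydrolase, at 0.11, S100B, a calcium-binding protein, at 0.17 and TIMP4, a metalloproteinase inhibitor, at 0.24. All of these shared the order control, model, recovery from high to low, which the choice by closeness in these ratios largely builds in.

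INSIG1 had 7 other probes within 0.25 and none within 0.1. Its nearest assigned gene among 610 was PPP1R1A, an inhibitor of protein phosphatase 1, at 0.15. PPP1R1A was above the floor in every array, with log2 signals of 10.71 in the control, 6.48 in the model and 7.49 in the recovery aorta, and its recovery signal was 2.02-fold that of model. NR5A2 at 0.56, CCL5 at 0.57 and IDO1 at 0.61 came next, and all lay below the floor in model and recovery, so their likeness to INSIG1 rests on signals that were not read.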

How the data were processed

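Total RNA was labelled with Cy3 and hybridized to Agilent rabbit arrays, 1 for each of 3 aortas. According to the submitters' processing notes the authors read the scans with Agilent Feature Extraction 10.7, and their methods state quantile normalization in GeneSpring. The deposited values are normalized log2 signals of 43603 gene probes and 58 control rows. The sorted columns differed by at most 0.016, so no further scaling was applied. Background treatment is not given in the sources used here. The authors' present and absent calls were not used.

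Values below the 40th percentile, 4.37, were set to it, which 60.0% of gene probes exceeded in the control array. A probe counted as changed at 2-fold or more, the threshold in the methods. A ratio with 1 floored side is a bound. No test was possible with 1 array per group, so the number of arrays limits the precision.

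The study's gene table was used only to give symbols to probes. Besides the 0.006 limit, genes outside the 3 members needed fewer than 0.05 expected chance matches, estimated from probes within 0.15 but over 0.02 away on the log2 scale. The members, gene lists and rules were chosen with earlier results of these data known. Named genes are the 3 members, listed genes with an assigned probe and the 4 nearest assigned genes per member. Some marker genes and the probes numbered beside INSIG1 were named after their values were seen. Some listed genes are not reported here. The search for promoter motifs was not run. Alternatives changed the floor, scaling, fold threshold, tolerance and chance limit. The scripts were tested on simulated data and used Python 3.11.15, numpy 2.4.6, pandas 2.3.3 and matplotlib 3.10.9.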

Additional observations from a re-analysis of the deposited data

How the results depend on the processing

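No paired analysis was possible because each group has 1 array, and for the same reason no array could be left out. For EBP, ACAT2 and INSIG1 all ratios to control stayed at least 2-fold lower under every floor, scaling and tolerance tried. The smallest was -1.70 for INSIG1 under the floor at the 60th percentile. It is a bound set by that floor, because the model and recovery signals lay below it. The wider tolerances could not move the ratios, because no other probe came within those limits. EBP and ACAT2 lay above every floor tried, so the floor could not move them either. INSIG1 in recovery over model passed 2-fold at 1.11 both without a floor and under a floor at the 20th percentile. ACAT2 did so at -1.12 when centred on the spiked-in controls, with or without a floor. With that centring and no floor INSIG1 stood at 0.55, short of 2-fold. The cause was not tested. Combining that centring with no floor, and taking the median over the INSIG1 run, were chosen after seeing the data. The median over all 6 probes of the run was -3.53 in model over control, -3.21 in recovery over control and 0.32 in recovery over model. No probe numbered next to a member also matched, so the mean of such a pair has no value.

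Probe counts depended on the settings. Higher and lower counts were 6617 and 6160 in model over control, 7888 and 7152 in recovery over control and 4715 and 4961 in recovery over model at 1.5-fold. At 4-fold they were 1131 and 1438, 1532 and 1810, and 411 and 441 in the same order. With no floor they were 5814 and 6162, 7914 and 7405, and 4403 and 4701, over 43603 probes. With the floor at the 60th percentile they were 2115 and 2413, 3040 and 2995, and 1254 and 1270, over 20147 probes. In recovery over model the floor at the 20th percentile gave 3323 and 3780. Centring on the spiked-in controls gave 6612 and 2515 in model over control and 805 and 6227 in recovery over model. With a limit of 0.1 expected chance matches 6 listed genes were assigned. Against control 4 were 2-fold lower and 1 was 2-fold higher in model, and the counts were the same in recovery. In recovery over model 1 passed 2-fold, upward. With a limit of 0.01 only EBP and INSIG1 were assigned.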
